A study of Mus musculus with 4 samples.

Results

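Tumour necrosis factor (TNF) acts through a receptor complex and an inhibitory loop built around the ubiquitin-editing enzyme A20, and 9 of its genes were followed here in mouse embryonic fibroblasts. They are Tnfaip3 (encoding A20), Tnip1, Tank, Tradd, Traf1, Traf2, Ripk1, Tnfrsf1a and Tnfrsf1b. Members were the probe sets annotated to exactly 1 of these symbols. This gave 9 probe sets for 8 genes, out of 10833 such probe sets for 8251 genes on the array. Tnfrsf1a had 2 probe sets and the others 1 each, and no probe set was annotated to Ripk1 alone, so that gene was dropped.

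Total RNA was profiled on 4 single-colour Affymetrix U74Av2 arrays, 1 for each of 4 groups of confluent cells. The groups were Xiap knockout fibroblasts given 20 ng/ml TNF for 4 hours, unstimulated Xiap knockout fibroblasts, wild-type fibroblasts given the same TNF treatment, and unstimulated wild-type fibroblasts. The product of Xiap blocks caspases and is also a ubiquitin ligase. The labels do not state the strain, the embryos behind each culture or the deleted part of Xiap. Nor do they say whether both arrays of a genotype came from 1 cell preparation. Other differences between the cells of the genotypes therefore cannot be told apart from the knockout.

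TNF binds 2 receptors. The first, TNFR1 (Tnfrsf1a), carries a death domain that recruits the adaptor TRADD and the kinase RIPK1, and TRAF2 then brings in the cIAP ubiquitin ligases. The ubiquitin chains formed there activate the TAK1 and IKK kinases and thereby the transcription factor NF-kB. A20 and its partner ABIN-1 (Tnip1) act on those chains and limit the signal, and the genes of several such inhibitors are known NF-kB targets.

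Values are probe set signals on a linear scale. Signals under a floor of 92.5, the 40th percentile of all non-control signals, were raised to it before log2 was taken. A probe set was measured in a comparison if at least 1 of its arrays lay above the floor, and a fold with 1 side at the floor is a bound. Pairs of arrays have no replicate, so no test was possible for them and a change of at least 2-fold was counted. An additive limma fit of genotype and TNF over the 4 arrays gave the tests, with Benjamini-Hochberg adjustment over 8228 probe sets. Its error is the disagreement of the genotypes about the TNF effect, pooled across probe sets, so its p-values have no replicate cultures behind them. Statements that all arrays of a condition lay above or below the others are descriptions. The share of all probe sets with such an order was not counted.

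The arrays were alike in scale, with a trimmed mean signal of 500.3 on each. Probe sets above the floor numbered 7456 with TNF and 7562 without TNF in knockout cells, against 7115 with TNF and 7678 without TNF in wild-type cells. Xiap itself was dim. Its brightest probe set had signals of 120 (TNF) and 180 (unstimulated) in knockout cells, against 126 (TNF) and 239 (unstimulated) in wild-type cells, which does not check the genotype labels because the deleted part is unknown. Of 10 fibroblast markers 9 or 10 lay above the floor on each array, with summed signals of 64088 and 66983 in knockout and 65797 and 68506 in wild-type cells. The exception on most arrays was Vim. Among leukocyte markers Ptprc, Adgre1 and Cd3e were below the floor on every array, as were the epithelial markers Epcam, Krt8, Krt18 and Krt19 and the endothelial markers Cdh5 and Tek, whereas the leukocyte markers Cd14, Csf1r and Cd68 and the epithelial marker Cdh1 were above it throughout. Cd79a was above the floor on 3 arrays, Kdr on 2, and Lyz2 and Pecam1 on 1 each.

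Promoter sequences are shown first, for the 3 members whose windows held the pattern described below. RefSeq promoter windows (GRCm38.p6) were matched for 8 of the 9 genes by gene ID. The 250 bases before each annotated start were searched on both strands for the 10-base kappaB consensus, the binding pattern of NF-kB. It was found in the windows of 3 genes, Tnfaip3, Tnip1 and Tank, and in none of the windows of Traf1, Traf2, Ripk1, Tnfrsf1a and Tnfrsf1b. Across all genes with a window 4.46% held it (1204 of 27025). Capitals mark the matches in the last 150 bases before the start, and overlapping matches are merged. The 150 bases shown lie at chr10:19015411-19015560 (minus strand) for Tnfaip3, chr11:54962941-54963090 (minus strand) for Tnip1 and chr2:61592947-61593096 (plus strand) for Tank.
Tnfaip3: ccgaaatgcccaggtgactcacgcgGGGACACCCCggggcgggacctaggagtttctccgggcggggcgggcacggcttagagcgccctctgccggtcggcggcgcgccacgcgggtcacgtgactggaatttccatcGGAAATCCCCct
Tnip1: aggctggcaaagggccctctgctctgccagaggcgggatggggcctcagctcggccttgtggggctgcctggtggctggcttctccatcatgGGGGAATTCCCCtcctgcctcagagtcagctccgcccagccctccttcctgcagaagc
Tank: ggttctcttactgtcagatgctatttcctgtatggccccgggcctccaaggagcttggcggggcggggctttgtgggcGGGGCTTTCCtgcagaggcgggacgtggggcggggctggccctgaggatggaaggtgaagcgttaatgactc
In Tnfaip3 the matches began 125 and 12 bases before the start, in Tnip1 4 overlapping matches began 58 to 56 bases before it, and in Tank 1 match began 72 bases before it. Tnfaip3 had 2 annotated windows, of which 1 held a match, and Tank had 4, of which 2 did. A match is a description of these letters and not a measured binding site.

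**Figure D1:**
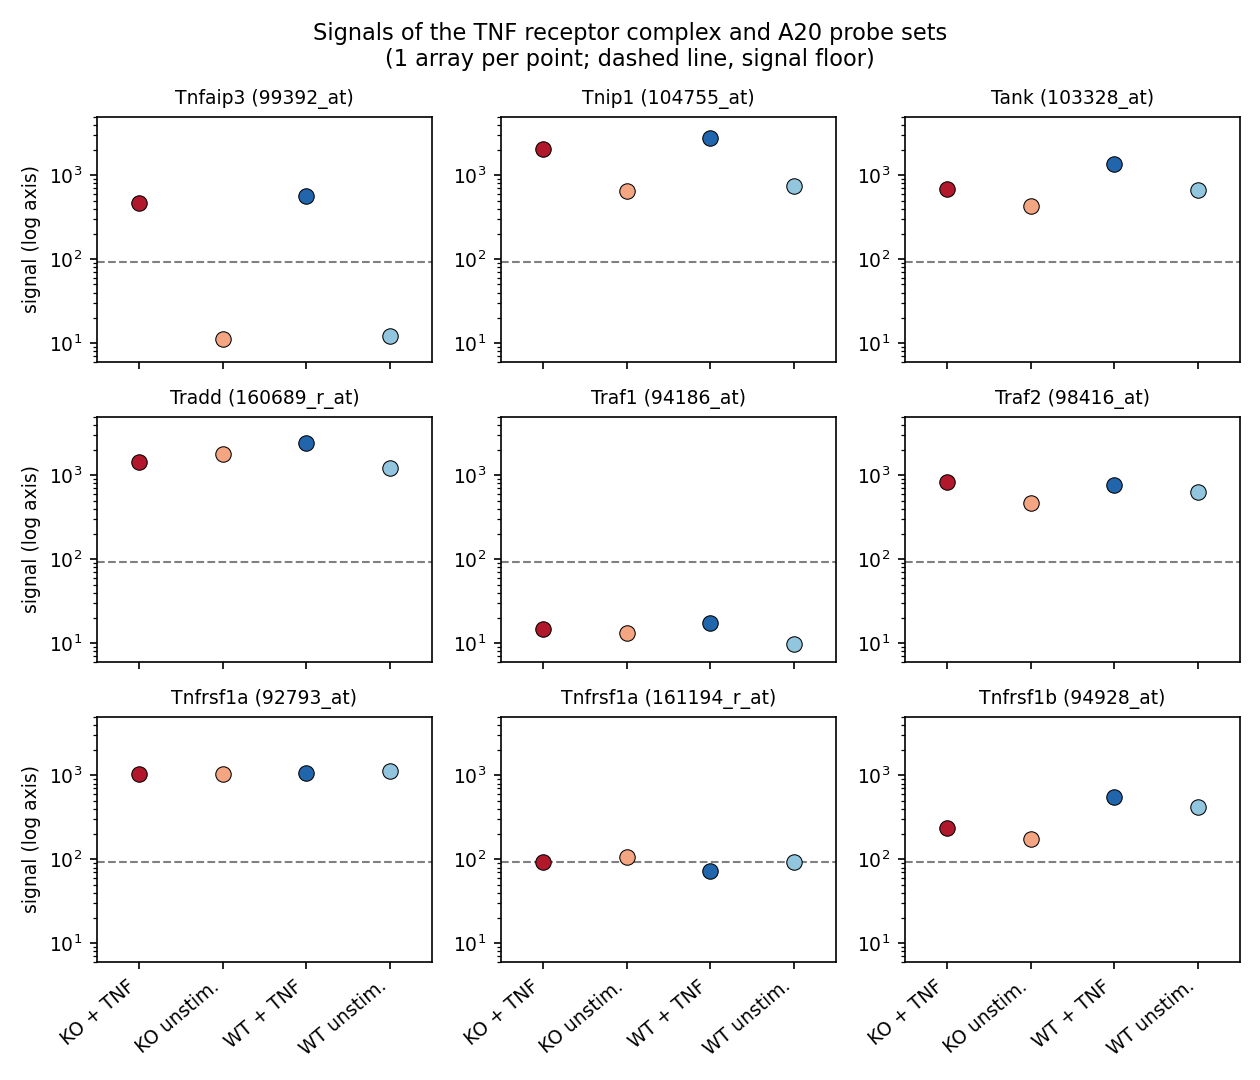
Signal of each of the 9 probe sets (log axis) on each array, in the order knockout with TNF, knockout unstimulated, wild-type with TNF, wild-type unstimulated; each point is 1 array and the dashed line is the floor of 92.5. Tnfaip3 lies above the floor only with TNF, Traf1 lies below it on all 4 arrays, and the main Tnfrsf1a probe set stays between 1028 and 1130.

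The inhibitory genes Tnfaip3 and Tnip1 were higher with TNF in both genotypes. Tnfaip3, whose product A20 both removes and adds ubiquitin chains on RIPK1, had a signal of 461 with TNF and 11.2 without TNF in knockout cells. In wild-type cells its signal was 561 with TNF and 12.1 without TNF. Both unstimulated arrays lay below the floor and both TNF arrays well above it, so the TNF and unstimulated arrays did not overlap. The gene was at least 4.98-fold higher with TNF in knockout cells and at least 6.07-fold higher in wild-type cells. It entered the measured set only through the arrays on which it is high. In such whole-culture RNA, more cells with the transcript and more transcript per cell cannot be told apart. The TNF effect on Tnfaip3 in limma was a rise of 2.46 in log2 signal (SE 0.22, adjusted p = 0.00608), higher in both pairs of arrays, and the adjusted p ranged from 4.46e-23 to 0.0466 over 8 settings. That effect is the mean of the lower bounds of both genotypes. It is not an estimate of the true change, since it depends on the floor. The SE and adjusted p depend on the floor too. Both unstimulated values were set to it, so only the TNF arrays carried a genotype difference into the error of the fit. Raising the floor to the 60th percentile gave log2 changes of 0.67 in knockout and 0.95 in wild-type cells, both under 2-fold.

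Tnip1 encodes ABIN-1, a ubiquitin-binding protein that partners A20. Its signal was 2031 with TNF and 657 without TNF in knockout cells, and 2792 with TNF and 754 without TNF in wild-type cells. Every array was above the floor, and both TNF arrays were above both unstimulated ones. The gene was 3.09-fold higher with TNF in knockout cells and 3.70-fold higher in wild-type cells. Its TNF effect in limma was a rise of 1.76 in log2 signal (SE 0.12, adjusted p = 0.00242). Without the intensity trend the same effect had an adjusted p of 0.0609, and over 8 settings the adjusted p ranged from 3.30e-18 to 0.0609.

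Tank encodes an adaptor that binds TRAF proteins and links them to the kinases TBK1 and IKK-epsilon. Its signal was 679 with TNF and 434 without TNF in knockout cells, and 1368 with TNF and 668 without TNF in wild-type cells. The knockout signal with TNF was therefore close to the wild-type signal without it. The log2 change with TNF was 0.65 in knockout cells, under 2-fold, and 1.03 in wild-type cells, which is 2.05-fold. The TNF effect over both genotypes was 0.84 on the log2 scale (SE 0.16) and did not pass in limma (adjusted p = 0.0886). It passed with quantile normalization (adjusted p = 0.0445), and the range over 8 settings was 0.000154 to 0.240.

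Among all 9 probe sets, 2 passed 2-fold upwards with TNF in knockout cells (Tnfaip3 and Tnip1) and none downwards, where 1.57% of 7764 measured probe sets were higher and 0.399% lower. In wild-type cells 3 were at least 2-fold higher (with Tank added) and none lower, against 2.54% higher and 2.79% lower of 7846. In the limma fit 2 of the 8 probe sets fitted rose with TNF (Tnfaip3 and Tnip1) and none fell. Over all probe sets 1.17% were called, 1.08% as higher and 0.0851% as lower. Tnfaip3 entered these counts only through its TNF arrays, so its place in them depends on the floor. Without the intensity trend limma called 1 of the 8, Tnfaip3. The share of higher calls among those past 2-fold in wild-type cells depended on the scaling, at 47.6% here, 79.1% with equal medians and 68.3% with quantile normalization. Equal medians moved the median log2 change of all probe sets with TNF in wild-type cells to 0.16, against -0.10 with the trimmed mean. Tnfaip3, Tnip1, Tank, Traf2 and Tnfrsf1b stayed higher with TNF in both genotypes under each scaling tried.

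The adaptor genes of the receptor complex showed no common direction. Tradd encodes the death domain adaptor that docks on TNFR1. Its signal was 1436 with TNF and 1803 without TNF in knockout cells, and 2411 with TNF and 1225 without TNF in wild-type cells. With TNF the signal was thus lower in knockout cells and higher in wild-type cells. The log2 change was -0.33 in knockout and 0.98 in wild-type cells, the second just under 2-fold (1.97-fold), and 1.26 with equal medians. The signs held under every scaling and floor tried. The limma TNF effect, an average of these opposite changes, was 0.32 (SE 0.28, adjusted p = 0.617). The 160689_r_at probe set is the only one for Tradd, and the r in its name marks a set picked with relaxed selection rules.

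Traf2 encodes the adaptor that recruits the cIAP ligases to both TNF receptors. Its signal was 835 with TNF and 473 without TNF in knockout cells, and 763 with TNF and 639 without TNF in wild-type cells. Both TNF arrays were above both unstimulated arrays. The difference was 1.77-fold in knockout and 1.19-fold in wild-type cells. The TNF effect of 0.54 on the log2 scale (SE 0.18) did not pass in limma (adjusted p = 0.288). With equal medians it was 0.70 with an adjusted p of 0.0259, and over 8 settings the adjusted p ranged from 0.0259 to 0.378.

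Traf1, which encodes a TRAF protein without a RING domain, was below the floor on every array. Its signals were 14.8 with TNF and 13.2 without TNF in knockout cells, and 17.6 with TNF and 9.9 without TNF in wild-type cells. No direction can be given for values at the floor.

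The receptor genes were not past 2-fold with TNF in either genotype. Tnfrsf1a, which encodes TNFR1, had nearly level signals on its 92793_at probe set, at 1040 with TNF and 1028 without TNF in knockout cells, and 1065 with TNF and 1130 without TNF in wild-type cells. The highest array was 1.10 times the lowest. The TNF effect was -0.04 on the log2 scale (SE 0.12, adjusted p = 0.915 in limma), and with equal medians its sign turned (0.13). The second probe set, 161194_r_at, was dim, at 93.5 with TNF and 105 without TNF in knockout cells, and 72.0 with TNF and 93.8 without TNF in wild-type cells. Its signals straddled the floor and add nothing on direction.

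Tnfrsf1b encodes TNFR2, the receptor without a death domain, which binds TRAF2 directly. Its signal was 237 with TNF and 173 without TNF in knockout cells, and 561 with TNF and 420 without TNF in wild-type cells. Both knockout arrays were below both wild-type arrays. The signal with TNF was 1.37-fold the unstimulated one in knockout cells and 1.33-fold in wild-type cells. The TNF effect of 0.43 on the log2 scale (SE 0.21) did not pass in limma (adjusted p = 0.413).

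**Figure D2:**
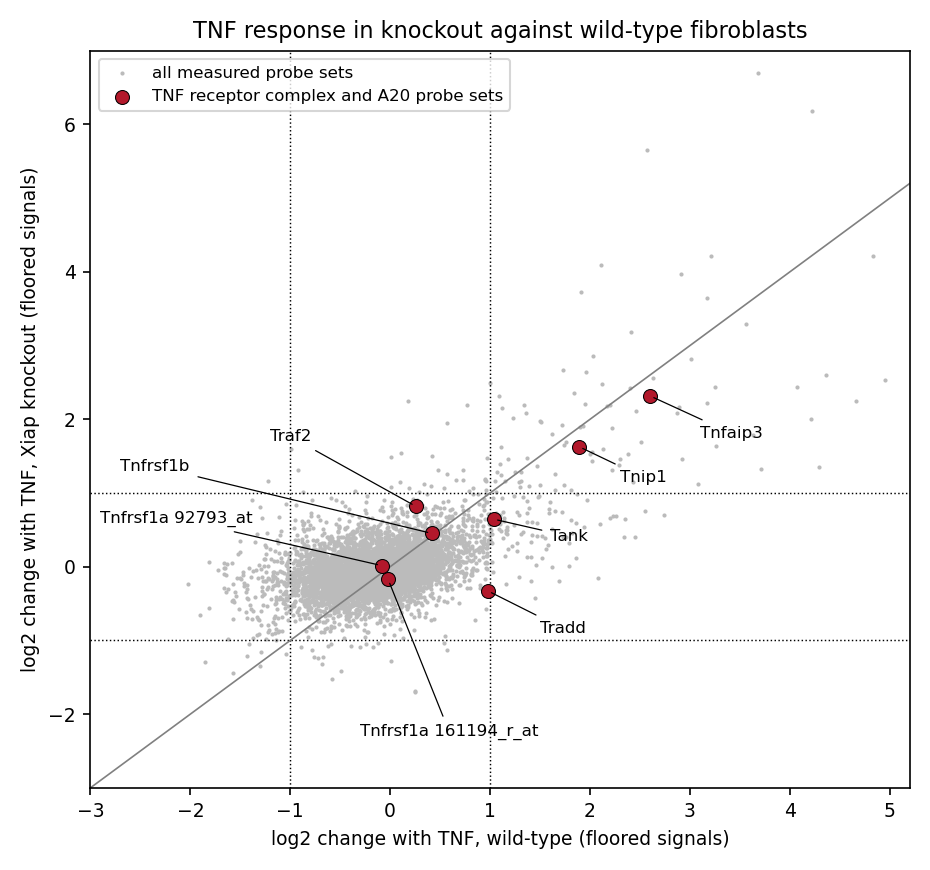
Log2 change with TNF in knockout cells (vertical axis) against that in wild-type cells (horizontal axis), from floored signals. Grey points are all measured probe sets, red points the 8 measured probe sets of the TNF receptor complex and A20 loop, dotted lines mark 2-fold and the solid line equality. Tnfaip3 and Tnip1 lie past 2-fold on both axes, and Tradd lies apart from the line at 0.98 and -0.33.

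Between genotypes, Tnfrsf1b and Tank were the members that fell in knockout cells by the limma test. The knockout and wild-type comparisons below reuse the same 4 arrays as the TNF comparisons above, so the values are not independent of them. Tnfrsf1b was 2.37-fold lower in knockout than in wild-type cells with TNF (signals 237 and 561) and 2.43-fold lower without TNF (173 and 420). Tnfrsf1b had a limma genotype effect of -1.26 on the log2 scale (SE 0.21, adjusted p = 0.00925), lower in both pairs of arrays, and the adjusted p ranged from 8.17e-07 to 0.0160 over 8 settings. Under the floor at the 60th percentile its log2 ratio was -0.95 with TNF and -0.53 without TNF, both under 2-fold because the knockout signals fell below that floor.

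Tank was 2.01-fold lower in knockout cells with TNF (679 and 1368) and 1.54-fold lower without TNF (434 and 668). The ratio with TNF was at the edge of 2-fold, and quantile normalization gave a log2 ratio of -0.98. The limma genotype effect of Tank was -0.82 in log2 signal (SE 0.16, adjusted p = 0.0173), with a range of 0.000331 to 0.0495 over 8 settings.

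The inhibitory genes Tnfaip3 and Tnip1 lay within 2-fold between genotypes where they could be compared. With TNF, Tnfaip3 had a log2 ratio of knockout to wild-type of -0.28 and Tnip1 of -0.46. Without TNF, Tnip1 had -0.20, and Tnfaip3 could not be compared because both arrays were below the floor. Genotype effects in limma were -0.14 for Tnfaip3 (SE 0.22, adjusted p = 0.715) and -0.33 for Tnip1 (SE 0.12, adjusted p = 0.114). For Tnfaip3 the fit took the unstimulated pair as equal, because both signals were raised to the floor. Its effect and p therefore carry genotype information from the TNF arrays alone and understate the ratio with TNF. Tradd had a log2 ratio of -0.75 with TNF and 0.56 without TNF, and Traf2 of 0.13 with TNF and -0.43 without TNF. Tnfrsf1a on 92793_at stayed close to equality at -0.03 with TNF and -0.14 without TNF.

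Of the 9 probe sets, 2 were at least 2-fold lower in knockout cells with TNF (Tnfrsf1b and Tank) and none was higher, where 4.97% of 7754 measured probe sets were lower and 5.83% higher. Without TNF 1 was lower (Tnfrsf1b) and none higher, against 4.58% lower and 4.53% higher of 8060. With TNF the share of higher calls among all calls was 54.0% here and 36.0% with equal medians. In the limma fit 2 of the 8 probe sets fitted fell in knockout cells and none rose, while 19.4% of all probe sets were called, 10.2% as higher and 9.19% as lower. The genotypes thus differed widely across the array, and the members' calls stand against that background. Proliferation markers moved with genotype too. All 4 measured ones exceeded wild-type at least 2-fold in both states, with summed signals of 2481 (TNF) and 2488 (unstimulated) in knockout cells against 842 (TNF) and 788 (unstimulated) in wild-type cells. Of the fibroblast markers 1 was past 2-fold in each direction. Thy1 was 6.31-fold lower in knockout cells with TNF and 3.63-fold lower without TNF, and S100a4 was 3.38-fold higher with TNF and 3.04-fold higher without TNF. Their part in the lower Tnfrsf1b and Tank signals was not tested.

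**Figure D3:**
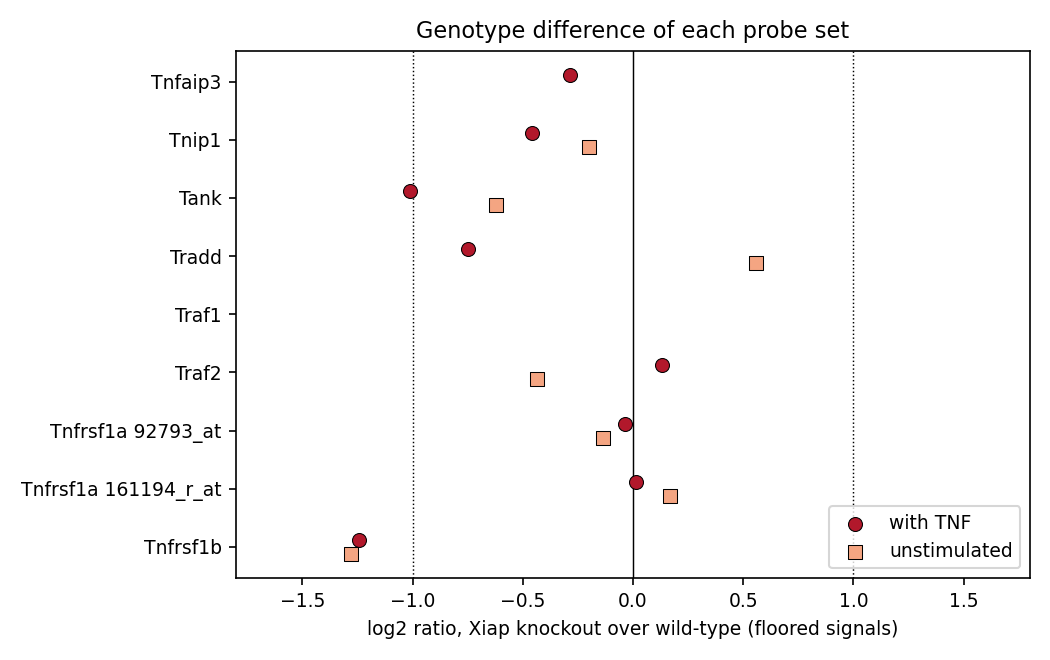
Log2 ratio of knockout over wild-type signal for each probe set (floored signals), with TNF (circles) and unstimulated (squares); each point compares 2 arrays and dotted lines mark 2-fold. Tnfrsf1b lies at -1.24 and -1.28, Tank reaches -1.01 with TNF, Tradd changes side between states, and Traf1 has no points because it was below the floor.

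The difference of response, taken as the knockout log2 change with TNF less the wild-type one, was past 2-fold for 1 of 9 probe sets, Tradd at -1.30. Over 8228 probe sets 2.69% passed 2-fold in the positive and 1.23% in the negative direction. The positive share of such calls was 68.6% here, 37.8% with equal medians and 49.8% with quantile normalization. Tradd ranked 60 from the lowest, and its difference stayed between -1.54 and -1.23 over 6 settings. Traf2 had the opposite sign, at 0.56, and Tank had -0.39. Tnip1 had -0.26, and Tnfaip3 had -0.28 on floored values, whose true value cannot be given because both unstimulated signals lay below the floor. Tnfrsf1b had 0.04 and Tnfrsf1a on 92793_at 0.10. With 1 array per group none of these differences could be tested.

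Other genes of the pathway were taken from 6 lists of ligands, ubiquitin enzymes, kinases, adaptor relatives, death genes and receptor-linked genes. Of 49 genes listed, 31 were on the array, each represented by its brightest probe set. In knockout cells 1 of 26 measured genes passed 2-fold upwards with TNF and 1 downwards, and in wild-type cells 2 of 28 passed upwards and 1 downwards. The shares over all measured genes were 1.48% higher and 0.409% lower in knockout cells, and 2.64% higher and 2.61% lower in wild-type cells. The median log2 change was 0.03 in knockout cells (-0.04 over all genes) and 0.14 in wild-type cells (-0.10 over all genes).

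None of the 8 measured kinase genes passed 2-fold with TNF, with a median log2 change of -0.11 in knockout and 0.35 in wild-type cells. The most changed in wild-type cells was Ikbke, encoding the TANK-binding kinase IKK-epsilon, at 0.89 (0.41 in knockout cells), and in knockout cells it was Tab2 at -0.42 (0.28 in wild-type cells). None of the 3 measured death genes passed either (median 0.11 in knockout and 0.23 in wild-type cells), and Casp8, the initiator caspase gene of the pathway, had 0.18 in knockout and 0.31 in wild-type cells. Azi2, the only adaptor relative on the array, was below the floor throughout. All 9 measured genes of a list of 10 NF-kB targets, among them Nfkbia and Relb, passed 2-fold upwards in both genotypes. Their median log2 change was 2.56 in knockout and 2.89 in wild-type cells. The list was chosen with earlier results of these data known, so this count is not a test. Bcl3 and Icam1 were measured only through the TNF arrays, and their changes depend on the floor.

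Of the 12 measured ubiquitin enzyme genes, the cIAP genes stood highest. Birc3, encoding the ligase cIAP2, had signals of 342 with TNF and 52.6 without TNF in knockout cells, and 429 with TNF and 80.2 without TNF in wild-type cells. It was at least 3.70-fold higher with TNF in knockout and at least 4.64-fold higher in wild-type cells. Its limma effect was a rise of 2.05 in log2 signal (SE 0.22, adjusted p = 0.0122). Birc3 was the only 1 of 28 pathway genes called for TNF, where 1.08% of all probe sets were called higher and 0.0851% lower. Both unstimulated signals of Birc3 were below the floor, so it was measured only through the TNF arrays, and effect and p depend on the floor. Birc2, encoding cIAP1, was 1.90-fold higher in knockout and 2.17-fold higher in wild-type cells, with a limma effect of 1.02 that did not pass (adjusted p = 0.0967), and its second probe set was dim.

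The ligand gene Tnf was below the floor on every array. Lta, encoding lymphotoxin alpha, a second ligand of the TNF receptors, had signals of 716 with TNF and 727 without TNF in knockout cells, and 256 with TNF and 813 without TNF in wild-type cells. It was 3.18-fold lower with TNF in wild-type cells, where the knockout log2 change was -0.02. The difference of response of 1.64 could not be tested, and its other probe set was below the floor throughout. Nsmaf, encoding a protein that binds TNFR1, was 2.06-fold lower with TNF in knockout cells (108 and 222). Its log2 change in wild-type cells was 0.54 (156 and 107). The lower signal of each pair was near the floor.

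By genotype, 3 of the 28 measured pathway genes rose in knockout cells in limma and none fell, where 10.2% of all probe sets were called higher and 9.19% lower. The count of higher genes is near that background, which counts probe sets rather than genes. In the fit of the brightest probe set per gene, 706 of 6174 genes were called higher and 645 lower. Ube2n, encoding the enzyme Ubc13 that builds lysine-63 ubiquitin chains, had signals of 3065 with TNF and 3126 without TNF in knockout cells, and 1507 with TNF and 1428 without TNF in wild-type cells. Its genotype effect was 1.08 on the log2 scale (SE 0.10, adjusted p = 0.00127). Tab2, encoding a chain-binding partner of the kinase TAK1, had an effect of 1.03 (SE 0.17, adjusted p = 0.00983), and Cflar, encoding the caspase-8 regulator c-FLIP, of 0.81 (SE 0.22, adjusted p = 0.0475).

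**Figure D4:**
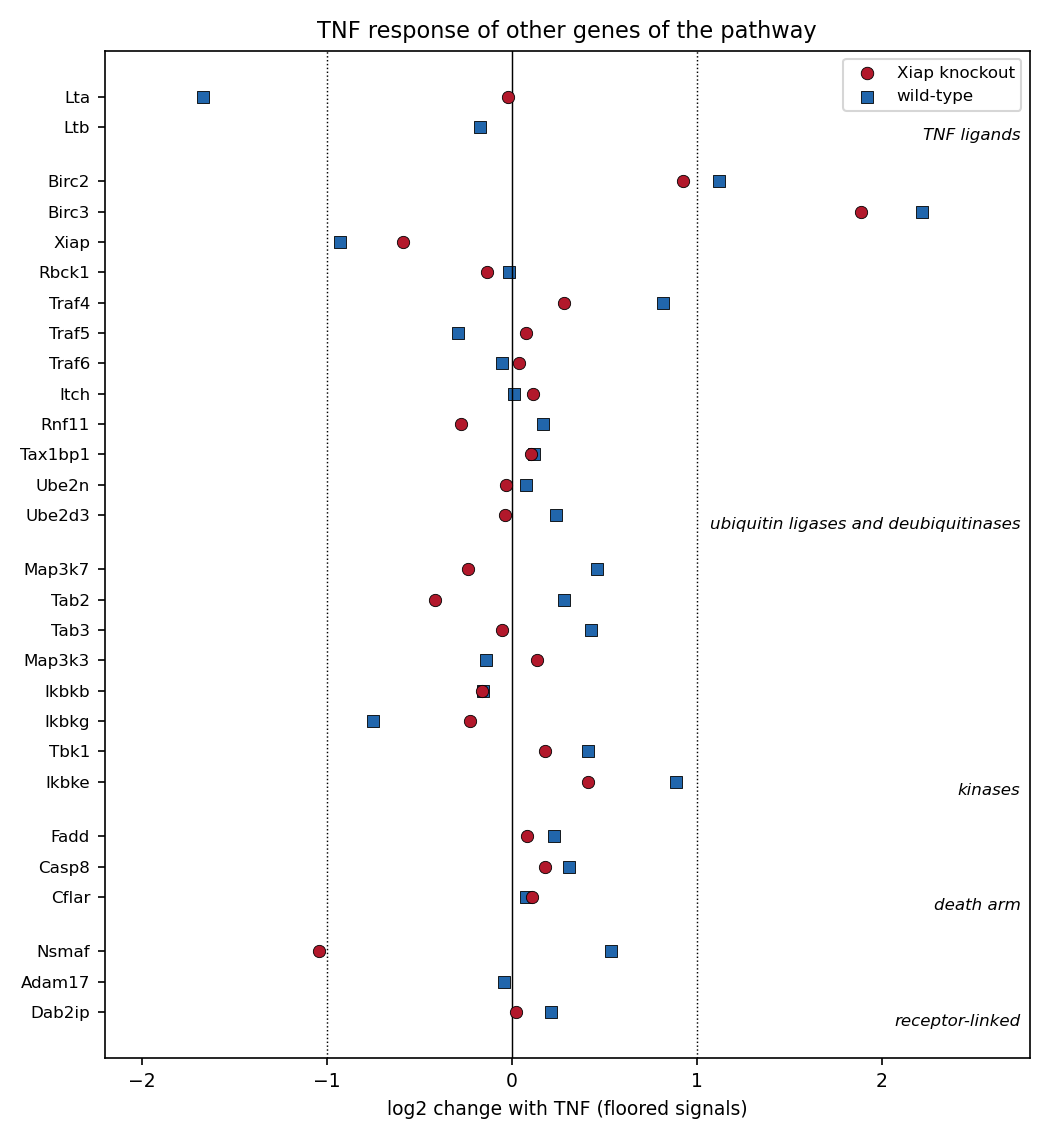
Log2 change with TNF (floored signals) of the 28 measured pathway genes outside the members, in knockout (circles) and wild-type cells (squares), grouped by list; a missing point was below the floor on both arrays. Birc3 lies past 2-fold in both genotypes, and Lta lies at -1.67 in wild-type and -0.02 in knockout cells.

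Genes whose course over the 4 arrays was most like that of Tnfaip3 were found by the Euclidean distance between floored log2 signals centred on each gene's mean, over 6167 genes. The nearest was Gbp7, encoding an interferon-inducible GTPase, at a distance of 0.22, with signals of 498 with TNF and 89.0 without TNF in knockout cells and 488 with TNF and 50.4 without TNF in wild-type cells. Relb (0.36), Birc3 (0.41), Fas (0.46) and Nfkbia (0.47) followed. Relb encodes an NF-kB subunit, Fas a death receptor and Nfkbia the inhibitor that holds NF-kB in the cytoplasm. All 5 were higher with TNF in both genotypes, which follows from how they were picked. The unstimulated signals of Gbp7, Birc3 and Fas also lay below the floor, so their closeness to Tnfaip3 depends on it. With 4 arrays and the unstimulated Tnfaip3 signals at the floor, the distance measures shape only above the floor. For Traf1 no such genes were sought because it was below the floor.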

How the data were processed

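Groups were taken from the sample titles, 1 array each. The authors deposited linear intensities, 1 per probe set, from MAS5 (per the submitters' processing notes), with no version or settings given in the sources used here. Equal trimmed means (2% left out at each end) show that the deposited arrays had been scaled together. The file held 12488 probe sets, of which 66 controls were left out. Names came from the platform annotation table, updated by Entrez identifier through RefSeq; 10833 probe sets had 1 symbol, 396 several and 1193 none.

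After rescaling to the common trimmed mean, signals were floored at the 40th percentile and converted to log2, leaving 8228 probe sets above the floor on at least 1 array. The fit used limma 3.58.1 in R 4.3.3 (lmFit, eBayes with trend, 2-sided, threshold 0.05) with 1 residual and 5.37 prior degrees of freedom. It was also run on simulated data with independent normal noise, additive effects and no floor. That run does not check the p-values where signals were floored or the genotypes differed in response. The number of arrays limits the precision. Alternatives were equal medians, quantile normalization, floors at the 20th and 60th percentiles, no floor with 1 added, no intensity trend and the brightest probe set per gene.

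Named were all member probe sets, pathway genes past 2-fold, the most changed gene of a list where none passed, and the 5 genes nearest in course to Tnfaip3. Cflar, Tnf and Azi2 were named after their values were seen. The members and lists were chosen with earlier results of these data known.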

Additional observations from a re-analysis of the deposited data

Results flagged for a closer look

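The log2 changes with TNF of 2 probe sets had opposite signs in the genotypes, and the difference was not tested because each group has 1 array. For Tradd (160689_r_at) the log2 change was -0.33 in knockout and 0.98 in wild-type cells, a difference of -1.30. For Tnfrsf1a (92793_at) it was 0.02 in knockout and -0.09 in wild-type cells, a difference of 0.10. The Tnfrsf1a signs were the same in both genotypes under the other scalings, at 0.06 in knockout and 0.19 in wild-type cells with equal medians, and -0.0051 in knockout and -0.11 in wild-type cells with quantile normalization.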

How the results depend on the processing

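Of 44 counts recomputed under the alternatives, 38 stayed within 1.5 times the reported count. With quantile normalization 1 probe set (in place of 2) was at least 2-fold different between genotypes with TNF. With the floor at the 60th percentile the counts were 1 for TNF in knockout cells, 0 between unstimulated genotypes and 1 between genotypes with TNF. In the limma fit the probe sets called for TNF numbered 4 with equal medians and 1 without the intensity trend. The TNF effect of Tnfrsf1a (92793_at) reversed to 0.13 with equal medians. The cause of these shifts was not tested. Over all probe sets, 96 were called for TNF here, against 493 with equal medians, 177 with quantile normalization and 15 without the trend. Leaving out an array leaves the fit no residual degree of freedom. Replicate cultures could not be paired because each group has 1 array and the labels carry no replicate numbers. The additive fit compares TNF with unstimulated arrays within each genotype. Signals under the floor limit Tnfaip3 without TNF and Traf1 throughout.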

Other observations

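Of 15 other TNF receptor superfamily genes listed, 11 were on the array and 6 were measured. Fas, the death receptor gene, had signals of 650 with TNF and 38.2 without TNF in knockout cells, and 748 with TNF and 18.7 without TNF in wild-type cells. Its limma effect was a rise of 2.91 in log2 signal (SE 0.22, adjusted p = 0.00336). Fas was the only 1 of the 6 called for TNF, where 1.08% of all probe sets were called higher and 0.0851% lower. Both unstimulated Fas signals were below the floor, so it was measured only through the TNF arrays, and effect and p depend on the floor. Tnfrsf11b, encoding the decoy receptor osteoprotegerin, had signals of 1323 with TNF and 2373 without TNF in knockout cells, and 902 with TNF and 842 without TNF in wild-type cells. Its genotype effect of 1.02 (SE 0.22, adjusted p = 0.0224 in limma) was opposite in sign to that of Tnfrsf1b.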
